A study of Mus musculus with 18 samples.

Results

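The genes described here are 10 that bring fatty acids into the hepatocyte or activate them there: Cd36, Slc27a2, Fabp1, Fabp2, Lipc, Vldlr, Acsl1, Acsl3, Acsl4 and Acsl5. They were chosen by name, with earlier results of these data known, so their values beside those of all genes are descriptions. All 10 were found among the mouse gene identifiers of a table of 28030 genes and passed the filter on low counts. RNA was sequenced from pericentral and periportal hepatocytes, the cells nearest the central vein and nearest the portal vein of the liver lobule, which had been separated with the detergent digitonin. All mice were C57BL/6J males, labelled WT, aged 12 weeks and kept on normal chow, and no transgene, deletion or drug was labelled in any group. Before the experiment all had been trained for 3 days to a 16 h overnight fast with food by day, and all were then given food with 20% sucrose in the drinking water. The fed mice were killed after 4 h of this feeding, at clock hour 13. For the fasts, food and sucrose water were withdrawn at that hour, and mice were killed after 8 h (clock hour 21) or 24 h (clock hour 13 of the next day). Thus 2 zones in 3 feeding states gave 6 groups of 3 libraries, and the 8 h fast differed from the fed state in clock hour as well as in food, which cannot be told apart. The labels number the replicates without saying whether they were separate mice or whether both zones came from the same mouse, so the p-values measure the spread between these libraries, which may in part be technical.

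Fatty acids reach the hepatocyte as free acids bound to albumin or as the triglyceride of circulating lipoproteins. Cd36, a scavenger receptor of the plasma membrane, and Slc27a2, which encodes the transport protein FATP2, help free fatty acids enter, while Vldlr is a lipoprotein receptor and Lipc is hepatic lipase, which cuts lipoprotein lipids at the cell surface. Inside, the liver and intestinal fatty acid-binding proteins Fabp1 and Fabp2 carry the acids through the cytosol. The long-chain acyl-CoA synthetases Acsl1, Acsl3, Acsl4 and Acsl5 join them to coenzyme A, the step that commits them either to oxidation or to esterification.

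The genes lie on 9 chromosomes of the GRCm38 mouse genome, the build that mm10 names, in the GENCODE M21 annotation. Acsl3 (ENSMUSG00000032883) is at chr1:78657825-78707743 on the plus strand, Slc27a2 (ENSMUSG00000027359) at chr2:126552407-126588243 on the plus strand and Fabp2 (ENSMUSG00000023057) at chr3:122895072-122899506 on the plus strand. Cd36 (ENSMUSG00000002944) is at chr5:17781690-17888801 on the minus strand, Fabp1 (ENSMUSG00000054422) at chr6:71199827-71205023 on the plus strand and Acsl1 (ENSMUSG00000018796) at chr8:46471037-46536051 on the plus strand. Lipc (ENSMUSG00000032207) is at chr9:70798128-70952226 on the minus strand and Acsl4 (ENSMUSG00000031278) at chrX:142317993-142390535 on the minus strand. Vldlr (ENSMUSG00000024924) at chr19:27216484-27254231 and Acsl5 (ENSMUSG00000024981) at chr19:55251938-55297720 share a chromosome, both on the plus strand. The exons of 4 of them overlap another annotated gene, Utp14b on the same strand for Acsl3, and Gm45244, Gm26697 and Zdhhc6 on the opposite strand for Acsl1, Slc27a2 and Acsl5. Whether the counting used strand is not given in the sources used here, so reads of such pairs may not be separated.

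The sequences before the start sites of Cd36, Acsl1 and Acsl3 are shown because these genes had the strongest zone difference, a rise and a fall with fasting, respectively, in the values below. RefSeq windows of build GRCm38.p6 matched all 10 genes at 13 start sites, and the 250 bases before each start were searched on both strands for 4 motifs. These were AGGTCA, the core site of nuclear receptors such as PPAR, found in 14% of all 32851 windows, and AGGTCANAGGTCA, 2 such core sites 1 base apart, which also count as matches of the first motif, found in 0.0335%. The others were TCACNCCAC, a sterol regulatory element (1.05%), and CTTTGAT, a site of the TCF factors of Wnt signalling (3.21%). Of the 13 windows, 9 hold no annotated exon, and those shown are among them; the Cd36 window lies inside the annotated gene, before an inner start. Capitals mark a match, and each line runs 5′ to 3′ on the strand of the gene, ending at the base before the start.
Cd36, chr5:17835897-17836146, minus strand: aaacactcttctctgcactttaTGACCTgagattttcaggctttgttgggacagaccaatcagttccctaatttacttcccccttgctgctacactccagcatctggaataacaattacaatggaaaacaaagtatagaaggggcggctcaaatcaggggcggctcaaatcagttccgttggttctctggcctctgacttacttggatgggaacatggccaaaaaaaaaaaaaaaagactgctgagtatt
Acsl1 first start, chr8:46470787-46471036, plus strand: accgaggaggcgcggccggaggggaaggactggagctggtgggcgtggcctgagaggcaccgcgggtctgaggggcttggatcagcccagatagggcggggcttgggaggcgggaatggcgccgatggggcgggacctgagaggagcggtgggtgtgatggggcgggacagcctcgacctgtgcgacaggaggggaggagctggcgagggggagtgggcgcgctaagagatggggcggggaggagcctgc
Acsl1 second start, chr8:46490716-46490965, plus strand: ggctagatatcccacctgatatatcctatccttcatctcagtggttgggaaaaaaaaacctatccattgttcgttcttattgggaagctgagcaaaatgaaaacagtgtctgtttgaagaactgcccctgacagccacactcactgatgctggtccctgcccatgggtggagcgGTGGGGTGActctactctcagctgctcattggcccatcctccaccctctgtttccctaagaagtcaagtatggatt
Acsl3, chr1:78657575-78657824, plus strand: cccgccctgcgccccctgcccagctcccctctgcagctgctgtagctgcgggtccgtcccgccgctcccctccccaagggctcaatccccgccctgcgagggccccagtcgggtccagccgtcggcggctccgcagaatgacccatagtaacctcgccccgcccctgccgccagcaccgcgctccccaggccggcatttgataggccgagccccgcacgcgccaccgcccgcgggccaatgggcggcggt
The core site was found before 4 of the 10 genes: Cd36 (228 bases before the start), Slc27a2 (220), Fabp1 (67 and 9) and Lipc (88 and 76). For each of them it was in 1 window, and the 14% above is a share of windows, of which the 10 genes have 13. The windows of Slc27a2 and Fabp1 overlap annotated exons. The sterol regulatory element was found before 1 gene, at the second start of Acsl1, 76 bases before it, where it reads GTGGGGTGA on the strand shown. The paired core sites and the TCF site were found before 0 of the 10. A match is a description of these letters, and a missing match says only that the letters are not in this window.

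The libraries held from 1.84e+07 to 2.64e+07 estimated counts, and 12477 genes were tested. Levels are given as CPM, counts scaled to the same library total. The 9 pericentral markers found summed to between 9712 and 18829 CPM in pericentral libraries, against 470.3 to 2138 CPM on the portal side. The 10 periportal markers separated the zones within each state but not across states: they summed to 7702 to 10020.3 CPM in pericentral and 14846 to 17738 CPM in periportal libraries of fed mice, 9879.6 to 13217 and 15109 to 27167 CPM after 8 h, and 16493 to 16798 and 23429.8 to 24737 CPM after 24 h. Pericentral 24 h replicate 2 had the lowest sum of pericentral markers in its group, 11153 CPM against 16208 and 18829 CPM. Periportal 8 h replicate 1 had lower sums than replicates 2 and 3 of its group for periportal markers (15109 CPM against 27167 and 25454), hepatocyte markers (116331 against 178603 and 162120), Kupffer cells (1.37 against 13.2 and 18.6) and endothelium (4.76 against 10.1 and 51.0). Its sum of pericentral markers was the highest of its group, 1130.3 CPM against 1006 and 507 CPM. The 7 hepatocyte markers found summed to 63848 to 105948 CPM in pericentral and 116331 to 195665 CPM in periportal libraries, so the zones did not overlap. Alb, the most abundant of them, averaged 51469 CPM in pericentral fed and 105925 CPM in periportal fed libraries. Markers of other cells were low: 11 of sinusoidal endothelium summed to 4.42 to 14 CPM in pericentral and 4.76 to 51.0 CPM in periportal libraries, 12 of Kupffer cells and leukocytes to 0.93 to 8.90 and 1.37 to 31.1 CPM, and 10 of stellate cells and fibroblasts to 1.11 to 6.67 and 1.57 to 19.8 CPM. The 7 cholangiocyte markers summed to 20.3 to 39.2 CPM in pericentral and 33.6 to 58.2 CPM in periportal libraries, with Epcam at 0 in all 18. The 6 adipocyte markers summed to 1.68 to 10.1 and 1.90 to 9.89 CPM, with the lipid droplet protein Plin1 at 0 in all 18 libraries. Nearly all of that sum was Cidec, a lipid droplet protein that hepatocytes also make (1.53 to 9.61 CPM); Adipoq, Lep, Fabp4 and Cfd reached at most 0.092, 0.041, 0.932 and 0.541 CPM.

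Levels between genes were compared as CPM per kilobase of transcript. Fabp1 was the most abundant of the 10 in each of the 6 groups, with a mean of 1395 CPM per kb in pericentral fed and 2372 CPM per kb in periportal 24 h libraries. Slc27a2 came next (338 CPM per kb in pericentral fed libraries) and then Acsl1 (252 CPM per kb), in every group. In pericentral fed libraries the highest value of Acsl1, 278 CPM per kb, was below the lowest of Slc27a2, 299 CPM per kb, whereas after 8 h the libraries of the 2 genes overlapped in that zone. Acsl5 (64.7 CPM per kb), Lipc (44.2), Fabp2 (33.3), Cd36 (27.8), Acsl3 (24.2) and Acsl4 (21.4) followed in that group. Neighbours from Lipc to Acsl4 overlapped in their libraries there, so their order is not resolved. Vldlr was the lowest of the 10 in each group, from 0.142 CPM per kb in periportal 8 h to 0.654 CPM per kb in pericentral fed libraries. By its mean, Cd36 was seventh in the 3 pericentral groups and ninth in the 3 periportal ones. In the pericentral fed, pericentral 8 h and periportal 8 h groups its values overlapped those of neighbouring genes, so its rank there is not resolved.

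**Figure D1:**
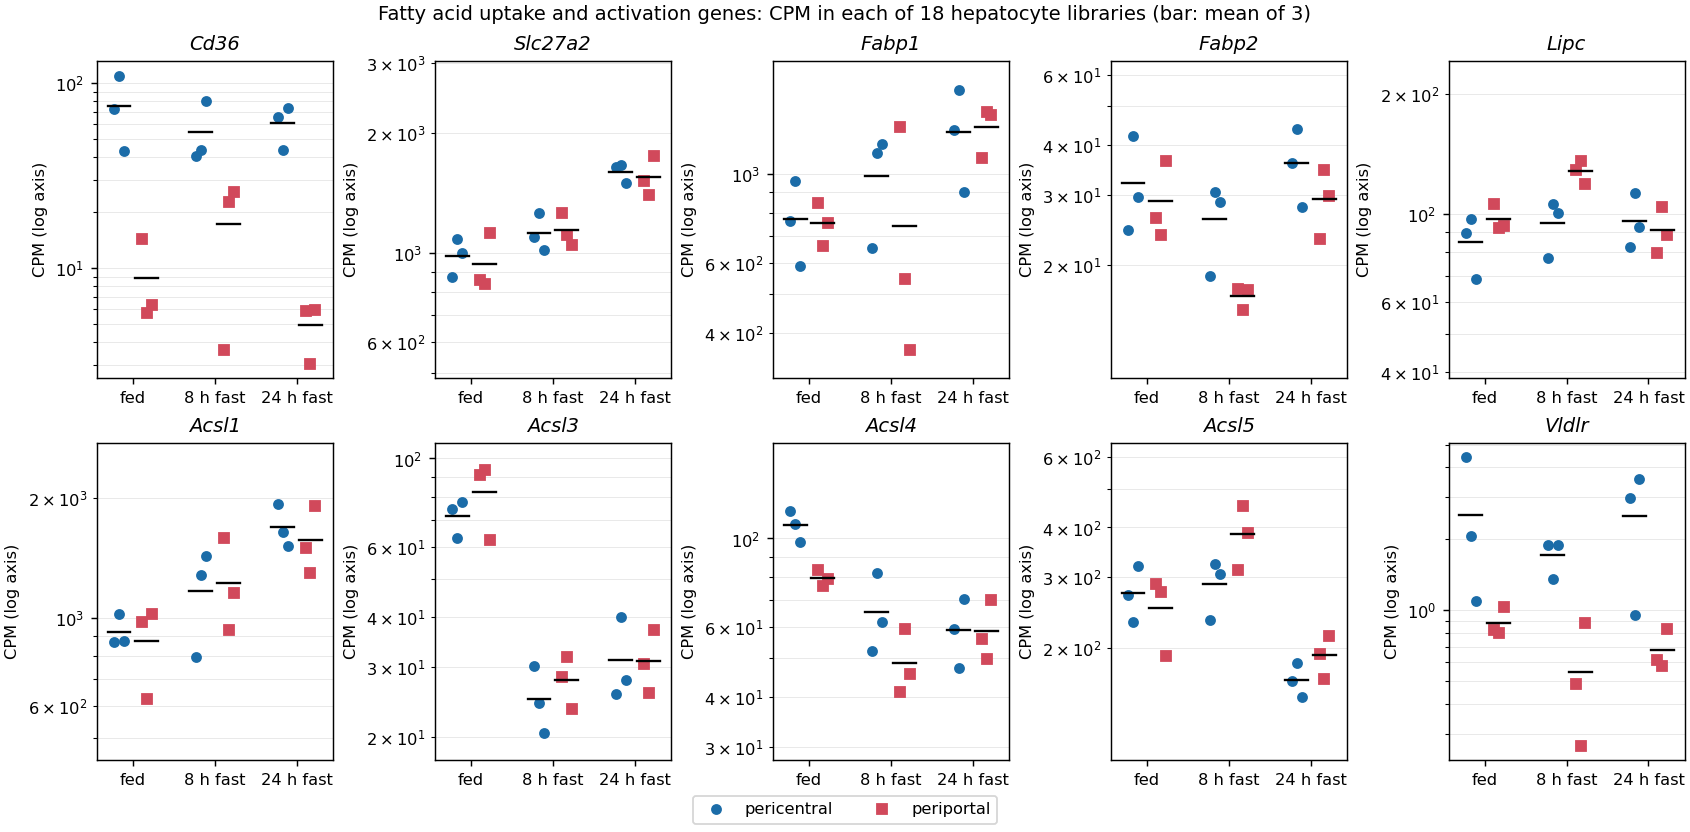
Level of each of the 10 genes in CPM (log axis, its range set for each gene) in the 18 libraries, by feeding state, with pericentral libraries as circles, periportal libraries as squares and a bar at the mean of 3. Cd36 lies between 40.4 and 110.1 CPM in the pericentral and between 3.03 and 25.8 CPM in the periportal libraries, while Acsl3 is lower in all 12 fasted libraries than in the 6 fed ones.

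Between the zones, 2 of the 10 were called, both lower in periportal hepatocytes. Cd36 passed the test in fed mice, after 24 h and over the mean of the 3 states, and Vldlr only over that mean. The other 8 passed in none of these comparisons. Calls were made by the quasi-likelihood F test of edgeR, where the p adjusted over all genes tested (Benjamini-Hochberg) was under 0.05. In fed mice 0 of the 10 were higher and 1 was lower in periportal hepatocytes, where 3.89% of all genes were called higher and 4.13% lower. After 8 h 0 were called in either direction by edgeR, against 3.72% higher and 3.42% lower of all genes. An unadjusted edgeR p under 0.05 was found for 6 of the 10 and for 2612 of all 12477 genes. DESeq2 called 1 of the 10 and 1258 of all genes. After 24 h 0 were higher and 1 lower, against 1.70% and 2.47%, and over the mean of the 3 states 0 and 2, against 10.3% and 9.96%. The libraries of the 2 zones did not overlap for 3 of the 10 in fed mice (28.3% of all genes), 4 after 8 h (23.9%), 2 after 24 h (22.1%) and 1 over all states (2.59%). The median absolute log2 fold change between zones was 0.17 in fed mice for the 10 and 0.20 for all genes, 0.42 against 0.21 after 8 h, and 0.10 against 0.19 after 24 h.

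Cd36, the receptor for free fatty acids, had 72.7, 110.1 and 43.2 CPM in the pericentral libraries of fed mice and 14.4, 5.71 and 6.28 CPM in the periportal ones. After 8 h it had 40.4, 43.4 and 80.6 CPM against 3.63, 22.8 and 25.8 CPM. After 24 h it had 66.0, 43.5 and 73.1 CPM against 5.87, 3.03 and 5.93 CPM. All 9 pericentral libraries were above all 9 periportal ones. Relative to its mean the periportal 8 h group was the most spread, with replicate 1 within the range of the 24 h group. Cd36 was 8.57-fold lower in periportal hepatocytes of fed mice, a log2 fold change of -3.10 (SE 0.63, edgeR adjusted p 0.0074), and 12.4-fold lower after 24 h (log2 fold change -3.63, SE 0.66, edgeR adjusted p 0.00659). After 8 h the log2 fold change was -1.66 (SE 0.59) and the call was missed, at an edgeR adjusted p of 0.12, although the 3 libraries of one zone did not overlap the 3 of the other. Over the mean of the states Cd36 was 6.95-fold lower in periportal hepatocytes (log2 fold change -2.80, SE 0.36, edgeR adjusted p 8.57e-05). The sinusoidal endothelial and the Kupffer cell markers, whose cells also express Cd36, summed to 18.2 to 20.9 and 7.68 to 11.2 CPM in the periportal fed libraries and to 4.42 to 7.01 and 1.77 to 2.45 CPM in the pericentral ones. After 8 h the zones overlapped, with endothelial sums of 4.76 to 51.0 CPM in periportal and 6.26 to 11.6 CPM in pericentral libraries and Kupffer sums of 1.37 to 18.6 and 0.93 to 4.56 CPM. They overlapped after 24 h too, at 5.42 to 28.0 and 5.82 to 14 CPM for endothelium and 2.74 to 31.1 and 3.48 to 8.90 CPM for Kupffer cells. The adipocyte marker sum, mostly Cidec, was 1.90 to 2.28 CPM in the periportal and 2.26 to 4.76 CPM in the pericentral fed libraries. The part of these cells in the difference was not tested. In bulk libraries such as these, fewer cells of a type and less RNA per cell cannot be told apart.

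With fasting Cd36 did not pass the test in either zone. The log2 fold changes against fed were -0.46 (SE 0.57) after 8 h and -0.31 (SE 0.57) after 24 h in pericentral hepatocytes, and 0.98 (SE 0.61) and -0.84 (SE 0.65) in periportal ones. Their 95% intervals were wide, from -1.69 to 0.77 for the pericentral change at 8 h and from -0.33 to 2.29 for the periportal one. Between 8 h and 24 h the periportal change was -1.82 (SE 0.65, edgeR adjusted p 0.109). Without periportal 8 h replicate 1, whose 3.63 CPM stood below the 22.8 and 25.8 CPM of its group and whose marker sums differed from theirs as given above, this change was -2.32 with an edgeR adjusted p of 0.02, and DESeq2 called it with all libraries (-1.82, adjusted p 0.0319).

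Vldlr, the receptor for very low density lipoprotein, was scarce, with 6 to 128 estimated counts per library. In fed mice it had 4.42, 2.05 and 1.09 CPM on the pericentral side and 0.825, 0.799 and 1.03 CPM on the periportal side. After 8 h the values were 1.88, 1.35 and 1.89 CPM against 0.485, 0.267 and 0.885 CPM, and after 24 h 2.97, 0.956 and 3.56 CPM against 0.615, 0.582 and 0.828 CPM. Within each state every pericentral library was above every periportal one. Over all states the zones overlapped, since pericentral 24 h replicate 2 lay below the periportal fed maximum of 1.03 CPM. Vldlr was 3.19-fold lower in periportal hepatocytes over the mean of the states (log2 fold change -1.68, SE 0.30, edgeR adjusted p 0.000703). No single state passed on its own, with log2 fold changes of -1.51 (SE 0.51), -1.65 (SE 0.54) and -1.87 (SE 0.53) and edgeR adjusted p of 0.0831, 0.0774 and 0.0581 in fed, 8 h and 24 h mice. Without pericentral 24 h replicate 2, the library with the lowest sum of pericentral markers in its group, the values became -1.51, -1.65 and -2.26 with edgeR adjusted p of 0.0458, 0.0439 and 0.0141. The fed and 8 h fold changes did not move, since that library enters them only through the shared fit. Leaving out other libraries brought the values to as little as -0.83, -1.33 and -1.53. A call was gained in 2 of 24 alternatives in fed mice, 3 of 24 after 8 h and 4 of 25 after 24 h. Vldlr did not pass the test with fasting, with log2 fold changes from -0.70 (SE 0.55, periportal 8 h) to -0.03 (SE 0.48, pericentral 24 h) against fed.

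**Figure D2:**
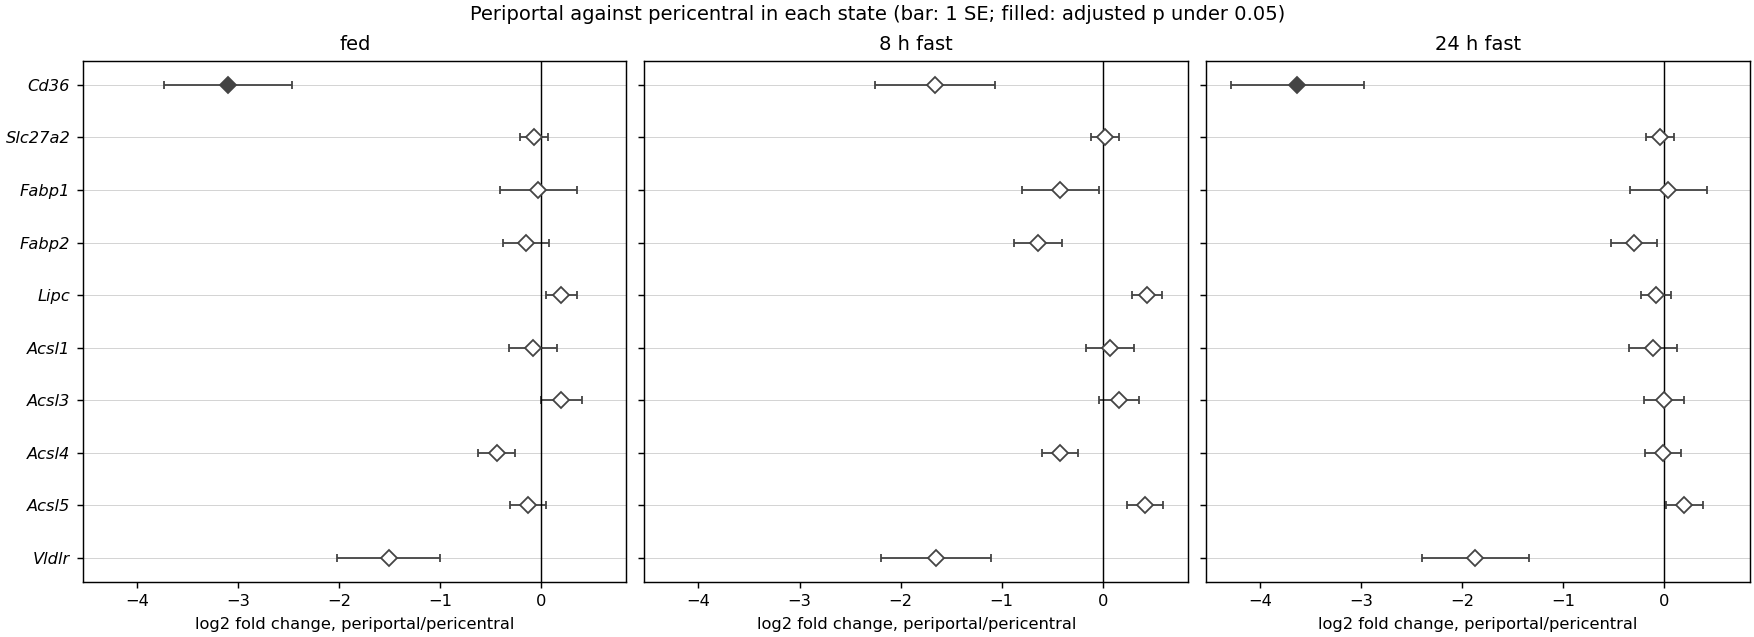
Log2 fold change of periportal against pericentral hepatocytes for each of the 10 genes (x axis, bar 1 SE) in fed mice and after 8 h and 24 h, on the same axis, with filled points where the edgeR adjusted p was under 0.05. The filled points are those of Cd36 at -3.10 in fed mice and -3.63 after 24 h, and Vldlr lies between -1.51 and -1.87 with open points.

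Lipc, hepatic lipase, had 106, 92.3 and 93.1 CPM in the periportal libraries of fed mice, 129, 136 and 119 CPM after 8 h and 79.8, 104 and 88.6 CPM after 24 h. The pericentral values were 89.4, 96.8 and 68.6 CPM in fed mice, 77.6, 106 and 100.3 CPM after 8 h and 82.4, 113 and 92.4 CPM after 24 h. The 3 periportal 8 h libraries were the highest of all 18. None of the tests on Lipc passed. The nearest were the periportal change from 8 h to 24 h (log2 fold change -0.50, SE 0.15, edgeR adjusted p 0.0521), the periportal change from fed to 8 h (0.40, SE 0.15, adjusted p 0.0873) and the zone difference after 8 h (0.44, SE 0.15, adjusted p 0.0911). DESeq2 called the first of these (-0.49, adjusted p 0.0223).

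With fasting, the synthetases and Slc27a2 carried most of the calls. After 8 h, 0 of the 10 rose and 2 fell in pericentral hepatocytes, where 7.27% of all genes were called higher and 6.57% lower, and 1 rose and 3 fell in periportal hepatocytes, against 7.56% and 6.85%. After 24 h, 2 rose and 3 fell in pericentral hepatocytes, against 10.8% and 11.1% of all genes, and 2 rose and 1 fell in periportal hepatocytes, against 9.59% and 10%. Between 8 h and 24 h, 1 rose and 1 fell in pericentral hepatocytes, against 5.20% and 4.51%, and 0 rose and 1 fell in periportal ones, against 3.22% and 4.24%. Libraries of the fed and 24 h states did not overlap for 5 of the 10 in each zone, as for 38.7% of all genes in pericentral and 36.9% in periportal hepatocytes. For fed against 8 h the counts were 2 (32.2% of all genes) and 5 (31.6%), and for 8 h against 24 h 3 (28.9%) and 4 (25.4%). The median absolute log2 fold change from fed to 24 h was 0.71 in pericentral hepatocytes for the 10 and 0.29 for all genes, and 0.58 against 0.28 in periportal hepatocytes. The signed medians were 0.07 and -0.25, since some of the 10 rose and others fell. As the 10 were chosen with earlier results known, these medians cannot show that they respond more than other genes. Within a zone, the 8 h and 24 h changes share their fed libraries.

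**Figure D3:**
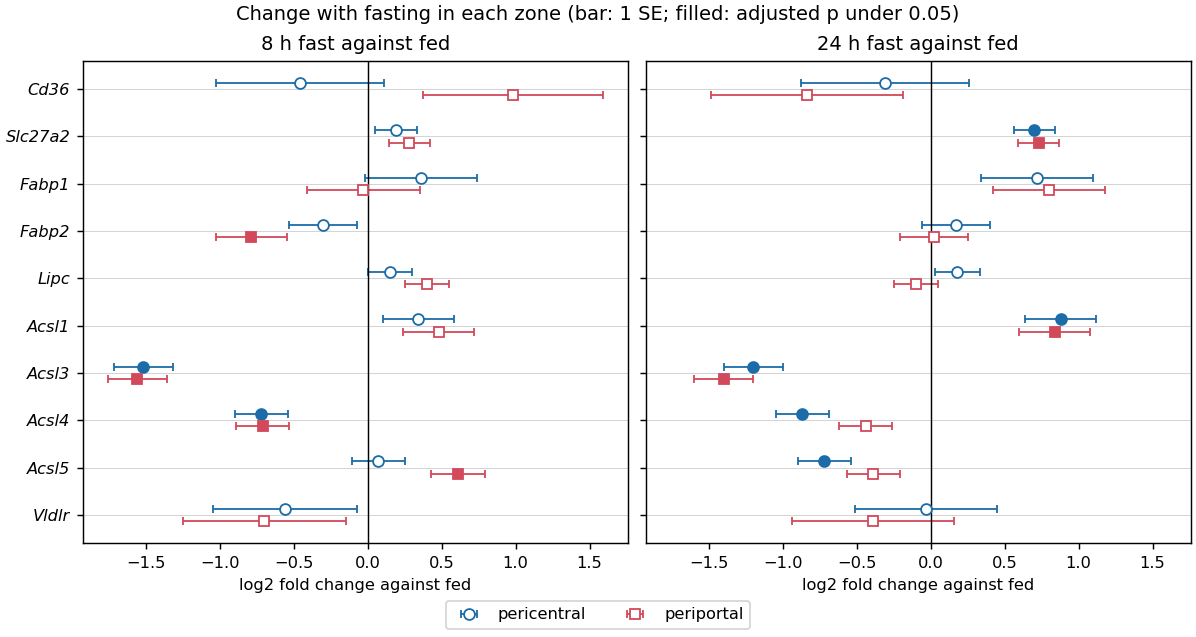
Log2 fold change against fed (x axis, bar 1 SE) for each of the 10 genes after 8 h and after 24 h of fasting, with pericentral hepatocytes as circles, periportal hepatocytes as squares, and filled points where the edgeR adjusted p was under 0.05. Acsl3 lies between -1.20 and -1.56 in all 4 comparisons, and Slc27a2 and Acsl1 lie between 0.70 and 0.88 after 24 h.

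Slc27a2, which encodes a fatty acid transporter that also activates very long chain fatty acids, rose after 24 h in both zones. Its pericentral values were 873, 1084 and 1000.2 CPM in fed mice, 1097, 1263 and 1022 CPM after 8 h and 1646, 1668 and 1498 CPM after 24 h. Its periportal values were 856, 839 and 1125 CPM in fed mice, 1266, 1113 and 1049 CPM after 8 h and 1519.8, 1398 and 1757 CPM after 24 h. All 6 libraries of 24 h lay above the 12 others. The rise from fed to 24 h was 1.63-fold in pericentral hepatocytes (log2 fold change 0.70, SE 0.14, edgeR adjusted p 0.00196) and 1.66-fold in periportal ones (0.73, SE 0.14, adjusted p 0.0017). After 8 h the log2 fold changes of Slc27a2 were 0.19 and 0.28 (SE 0.14 each), and neither was called. From 8 h to 24 h it rose in pericentral hepatocytes (0.51, SE 0.14, edgeR adjusted p 0.031), a call that was lost without any 1 of 5 of the 6 libraries compared (edgeR adjusted p 0.0584 to 0.113) and under scaling without the 20 most abundant genes (0.0682). The periportal change was 0.45 (SE 0.14, adjusted p 0.0631). The zones were close in every state: over the mean of the states the log2 fold change was -0.03 with a 95% interval from -0.20 to 0.14.

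Fabp1, the main fatty acid-binding protein of liver, did not pass any test in the fit of all 18 libraries. It had 763, 962 and 589 CPM in pericentral fed libraries, 654, 1129 and 1191 CPM after 8 h and 1293, 1626 and 901 CPM after 24 h. Periportal libraries had 845, 661 and 755 CPM in fed mice, 1314, 545 and 363 CPM after 8 h and 1098, 1434 and 1403 CPM after 24 h. The 3 periportal libraries of 24 h were above the 3 of fed mice, and the periportal 8 h group was the most spread of the 6. From fed to 24 h the change was 0.72 on the log2 scale (SE 0.38, edgeR adjusted p 0.195) in pericentral and 0.80 (SE 0.38, adjusted p 0.16) in periportal hepatocytes. With only the compared groups in the fit, the periportal rise was called (0.81, SE 0.15, edgeR adjusted p 0.00617). Periportal 8 h replicate 1, which was the lowest of its group for Cd36 and for the periportal, hepatocyte, Kupffer cell and endothelial marker sums, was the highest for Fabp1. Without it 3 results of Fabp1 were called by edgeR: the periportal rise from fed to 24 h (0.79, adjusted p 0.0425), the periportal rise from 8 h to 24 h (1.52 in place of 0.82, adjusted p 0.00914) and the zone difference after 8 h (-1.13 in place of -0.42, adjusted p 0.0277).

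Fabp2, the intestinal form, was less abundant and fell after 8 h in periportal hepatocytes. Periportal libraries had 26.2, 23.8 and 36.5 CPM in fed mice, 17.4, 15.4 and 17.3 CPM after 8 h and 23.2, 34.5 and 29.8 CPM after 24 h. Pericentral libraries had 24.5, 42.2 and 29.6 CPM, then 18.8, 30.4 and 28.8 CPM, then 36.1, 43.7 and 28.0 CPM. The 3 periportal 8 h libraries were the lowest of all 18. From fed to 8 h the periportal change was -0.79 on the log2 scale (SE 0.24, edgeR adjusted p 0.0355), and the return from 8 h to 24 h was 0.80 (SE 0.24, adjusted p 0.0513). The fall was no longer called without any 1 of 5 of the 6 libraries compared, with edgeR adjusted p of 0.0629 to 0.15 and, without periportal fed replicate 3, a log2 fold change of -0.58, nor without the filter on low counts (adjusted p 0.0724). In pericentral hepatocytes the change of Fabp2 from fed to 8 h was -0.30 (SE 0.23, edgeR adjusted p 0.458). Between zones after 8 h it was -0.64 (SE 0.24, adjusted p 0.126).

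Acsl1, the most abundant of the 4 acyl-CoA synthetases measured, rose after 24 h in both zones. Pericentral libraries had 869, 1019 and 876 CPM in fed mice, 796, 1282 and 1429 CPM after 8 h and 1924, 1640.1 and 1513 CPM after 24 h. Periportal libraries had 973, 627 and 1024 CPM in fed mice, 1584, 932 and 1153 CPM after 8 h and 1498, 1296 and 1905 CPM after 24 h. In each zone the 24 h libraries lay above the fed ones, and the 8 h libraries overlapped the fed ones. The rise to 24 h was 1.84-fold in pericentral hepatocytes (log2 fold change 0.88, SE 0.24, edgeR adjusted p 0.0147) and 1.79-fold in periportal ones (0.84, SE 0.24, adjusted p 0.0203). After 8 h the log2 fold changes were 0.34 and 0.48 (SE 0.24 each), uncalled. The pericentral call was lost without fed replicate 1 (0.83), fed replicate 3 (0.84) or 24 h replicate 1 (0.76), and the periportal call without fed replicate 2 (0.65) or 24 h replicate 3 (0.68). The zones differed by -0.04 over the mean of the states, with a 95% interval from -0.33 to 0.25.

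Acsl3, a synthetase of the endoplasmic reticulum and lipid droplets, had the largest called fasting changes of the 10, and they were falls. Pericentral libraries had 74.8, 63.0 and 77.9 CPM in fed mice, 30.2, 24.3 and 20.5 CPM after 8 h and 25.7, 40.1 and 27.8 CPM after 24 h. Periportal libraries had 91.1, 93.6 and 62.6 CPM in fed mice, 28.3, 31.7 and 23.6 CPM after 8 h and 30.5, 25.8 and 37.1 CPM after 24 h. The lowest fed library, at 62.6 CPM, was above the highest fasted one, at 40.1 CPM. By 8 h Acsl3 was 2.88-fold lower in pericentral hepatocytes (log2 fold change -1.52, SE 0.20, edgeR adjusted p 0.000131) and 2.96-fold lower in periportal ones (-1.56, SE 0.20, adjusted p 0.000123). At 24 h it was 2.30-fold lower (-1.20, SE 0.20, edgeR adjusted p 0.000585) and 2.65-fold lower (-1.40, SE 0.20, adjusted p 0.000221). The changes from 8 h to 24 h were 0.32 and 0.16 (SE 0.20 each), uncalled. Between zones Acsl3 differed by 0.12 over the mean of the states, with a 95% interval from -0.13 to 0.36.

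Acsl4, the synthetase that prefers arachidonic acid, also fell. Pericentral libraries had 117, 109 and 97.8 CPM in fed mice, 52.3, 82.0 and 61.8 CPM after 8 h and 59.2, 47.2 and 70.3 CPM after 24 h. Periportal libraries had 83.4, 76.2 and 79.3 CPM in fed mice, 41.3, 59.3 and 45.6 CPM after 8 h and 55.9, 49.8 and 70.2 CPM after 24 h. In both zones all 6 fasted libraries were below the 3 fed ones, and the fed pericentral libraries were above the fed periportal ones. At 8 h Acsl4 had changed by -0.72 on the log2 scale (SE 0.18, edgeR adjusted p 0.0116) in pericentral and -0.71 (SE 0.18, adjusted p 0.0141) in periportal hepatocytes. These calls were lost without pericentral 8 h replicate 1 (-0.59) and without periportal fed replicate 1 (-0.67), 8 h replicate 1 (-0.60) or 8 h replicate 3 (-0.66). At 24 h it was -0.87 (SE 0.18, edgeR adjusted p 0.00246) in pericentral hepatocytes and -0.44 (SE 0.18, adjusted p 0.0974) in periportal ones. Scaling without the 20 most abundant genes, which lowered the median of all genes in that periportal comparison by 0.11, gave -0.56 and an edgeR adjusted p of 0.0254. The test of the difference between the zones' changes to 24 h gave 0.43 (SE 0.25, edgeR adjusted p 0.73). Between zones the log2 fold change of Acsl4 was -0.44 with an SE of 0.18 in the fed state (edgeR adjusted p 0.161, or 0.0254 with only these groups in the fit) and -0.29 over the mean of the states (SE 0.10, adjusted p 0.0583).

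Acsl5, a synthetase of mitochondria and endoplasmic reticulum, fell late. Pericentral libraries had 270.3, 232 and 321 CPM in fed mice, 235, 323 and 306 CPM after 8 h and 165, 183 and 150 CPM after 24 h. Periportal libraries had 288, 275 and 190.3 CPM in fed mice, 313, 454 and 388 CPM after 8 h and 193, 167 and 214 CPM after 24 h. The periportal 8 h libraries were above those of fed mice and of 24 h, while the pericentral 8 h libraries overlapped the fed ones. Acsl5 rose from fed to 8 h in periportal hepatocytes, 1.53-fold (log2 fold change 0.61, SE 0.18, edgeR adjusted p 0.0293), and the pericentral value was 0.07 (SE 0.18, adjusted p 0.854). The test of the difference between these changes gave 0.55 (SE 0.25, unadjusted p 0.0467, edgeR adjusted p 0.909), so the zones were not shown to differ. The periportal rise was lost without fed replicate 3 (0.45), 8 h replicate 2 (0.48) or 8 h replicate 3 (0.61), and with only the compared groups in the fit (0.62). From 8 h to 24 h Acsl5 fell 1.73-fold in pericentral (-0.79, SE 0.18, edgeR adjusted p 0.0117) and 2.01-fold in periportal hepatocytes (-1.01, SE 0.18, adjusted p 0.00356), the former call being lost without pericentral 24 h replicate 3 (-0.72). Against fed, the 24 h change was -0.72 (SE 0.18, edgeR adjusted p 0.00872) in pericentral and -0.39 (SE 0.18, adjusted p 0.141) in periportal hepatocytes, the latter -0.51 with an adjusted p of 0.0383 under scaling without the 20 most abundant genes.

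The proportions of the 4 synthetases are given per kilobase as a description, with no test. Acsl1 made up 69.5% ± 4.07 of their summed CPM per kb in pericentral fed libraries, 77.6% ± 3.47 after 8 h and 88.2% ± 1.46 after 24 h (SD, n = 3 each). In periportal libraries its share was 69.2% ± 8.43, 74.4% ± 8.14 and 86.3% ± 0.67. In both zones the 3 libraries of 24 h were above all 3 fed and all 3 of 8 h. Acsl5 held 17.9% ± 3.23 in pericentral fed libraries, 16.9% ± 1.96 after 8 h and 7.53% ± 0.872 after 24 h, and 17.7% ± 5.27, 21.2% ± 6.92 and 9.19% ± 0.627 in periportal ones. Acsl3 went from 6.70% ± 0.919 in pericentral fed libraries to 2.24% ± 1.08 after 8 h, and from 8.33% ± 2.67 to 2.16% ± 0.54 in periportal ones. Acsl4 went from 5.92% ± 0.649 to 3.23% ± 0.594 and from 4.68% ± 0.575 to 2.25% ± 0.756. The summed level was 362 ± 13.2 CPM per kb in pericentral fed libraries and 523 CPM per kb after 24 h, and 341 ± 51.9 and 495 CPM per kb in periportal ones.

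**Figure D4:**
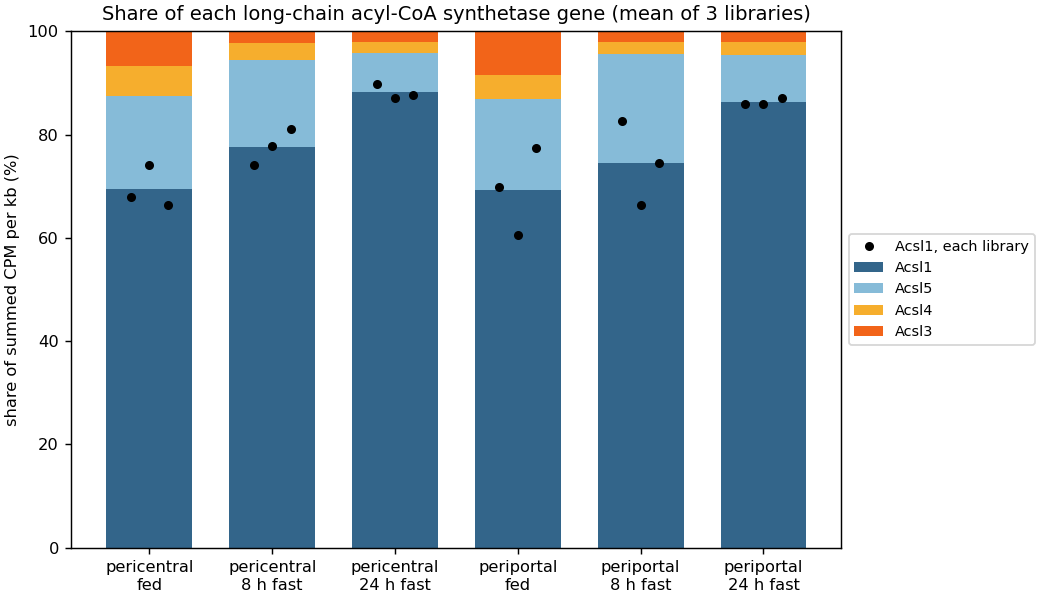
Share of each of the 4 measured long-chain acyl-CoA synthetase genes in their summed CPM per kilobase (y axis, percent, mean of 3 libraries) in the 6 groups, with dots for the share of Acsl1 in each library. The mean share of Acsl1 is 69.5% and 69.2% in the fed groups and 88.2% and 86.3% after 24 h.

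Whether fasting changed the 10 genes differently in the 2 zones was tested as the periportal change minus the pericentral change. From fed to 8 h, edgeR called 0 of the 10 and 0% of all genes. An unadjusted edgeR p under 0.05 was found for 1 of the 10, Acsl5, and for 680 of all genes. DESeq2 called 0 of the 10 and 4 of all genes. From fed to 24 h edgeR called 0 of the 10 and 0.0160% of all genes. Its unadjusted p was under 0.05 for 0 of the 10 and 962 of all genes, and DESeq2 called 0 of the 10 and 42 of all genes. The differences ranged from -0.49 (Fabp2) to 1.44 (Cd36, SE 0.83) for 8 h and from -0.53 (Cd36, SE 0.86) to 0.43 (Acsl4, SE 0.25) for 24 h. For Cd36 the 95% interval at 24 h ran from -2.39 to 1.33, so a sizeable difference was not detectable at this spread. For Slc27a2 it ran from -0.39 to 0.45.

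Genes with the most similar pattern were found for the 8 members called in at least 1 comparison, as the root mean square difference of the log2 group means over the 6 groups, each profile centred on its own mean. For Cd36 the nearest of 6582 genes with a mean of at least 10 CPM were Cyp2c50 (0.24) and Cyp2c54 (0.39), where the median gene was at 1.49. Chordc1 was among the nearest to Acsl3 (0.16), against a median of 0.70. Slc27a2 lay nearest to Slc25a20, the mitochondrial carnitine-acylcarnitine carrier, and to Gpat4, a glycerol-3-phosphate acyltransferase (0.05 each, median 0.34), and Acsl1 to Hsdl2 and Slc15a4 (0.05 each, median 0.39). For Acsl4 they were Fam136a and Dynll1 (0.11 each, median 0.41), for Acsl5 Chid1 and Agpat2 (0.12 each, median 0.44), and for Fabp2 Anxa7 (0.08) and Mpp1 (0.11, median 0.38). For Vldlr they were Khdrbs3 (0.08) and Sult2a8 (0.09), with a median of 0.60. Since 0.5 CPM was added before the logarithm, the profile of the scarce Vldlr is narrowed, to a range of 1.43, and its likeness to more abundant genes is uncertain. The Cyp2c genes belong to a family of similar sequences, so their levels are uncertain.

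Of 24 other fatty acid carriers and acyl-CoA synthetases 18 were tested. Between zones 1 was called in each state, lower in periportal hepatocytes in fed mice (4.13% of all genes) and after 24 h (2.47%) and higher after 8 h (3.72%), and 4 over the mean of the states, all lower (9.96%). They included the medium-chain synthetases Acsm1 (in the fed state, log2 fold change -0.49, SE 0.13, edgeR adjusted p 0.0231) and Acsm5 (-0.89 after 24 h, SE 0.21, adjusted p 0.0201), and Acsf3 (-0.29 over the mean of the states, SE 0.09, adjusted p 0.0258). Slc27a5, a liver bile acid and fatty acyl-CoA synthetase of the same family as Slc27a2, reached 1351 ± 176 CPM in periportal 8 h libraries, against 959 ± 71.6 CPM in pericentral ones (0.49, SE 0.12, edgeR adjusted p 0.0205). It rose from fed to 8 h in periportal hepatocytes (0.43, SE 0.12, edgeR adjusted p 0.0265). With fasting against fed, edgeR called 0 in pericentral hepatocytes after 8 h, against 7.27% of all genes higher and 6.57% lower. There 2 had an unadjusted edgeR p under 0.05, as had 3327 of all genes, and DESeq2 called 0 of them and 2083 of all genes. In periportal hepatocytes after 8 h edgeR called 1, higher, where 7.56% of all genes were. After 24 h it called 1 higher and 1 lower in each zone, against 10.8% and 11.1% of all genes in pericentral and 9.59% and 10% in periportal hepatocytes. From 8 h to 24 h, 2 rose and 3 fell in pericentral hepatocytes (5.20% and 4.51% of all genes), and 0 rose and 2 fell in periportal ones (3.22% and 4.24%). Acss2, which activates acetate, fell from fed to 24 h in pericentral hepatocytes (-1.89, SE 0.35, edgeR adjusted p 0.00153), and Acsm3 rose in the same comparison (0.61, SE 0.13, adjusted p 0.00378).

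Of the 21 lipoprotein lipases, receptors and partners, at most 8 were called in any 1 comparison. In periportal hepatocytes 3 were higher and 1 lower in fed mice (3.89% and 4.13% of all genes), 6 and 1 after 8 h (3.72% and 3.42%), and 1 and 0 after 24 h (1.70% and 2.47%). With fasting, 4 rose and 4 fell in pericentral hepatocytes at each time, against 7.27% and 6.57% of all genes for 8 h and 10.8% and 11.1% for 24 h. In periportal ones 2 rose and 3 fell after 8 h (7.56% and 6.85%), and 2 rose and 4 fell after 24 h (9.59% and 10%). Angptl4, an inhibitor of lipoprotein lipase, rose from 13.9 ± 2.89 CPM in periportal fed to 299 ± 57.4 CPM in 24 h libraries (log2 fold change 4.43, SE 0.30, edgeR adjusted p 5.12e-07) and was lower in periportal hepatocytes of fed mice (-1.02, SE 0.27, adjusted p 0.0275). In the fasted states its mean was higher on the periportal side, 268 ± 40.8 against 189 ± 35.9 CPM after 8 h and 299 ± 57.4 against 226 ± 88.8 CPM after 24 h. Angptl8, another inhibitor, fell from 247 ± 104 to 9.34 ± 2.30 CPM in pericentral hepatocytes (-4.73, SE 0.48, edgeR adjusted p 2.46e-05). Lpl, lipoprotein lipase, had the zone direction of Cd36: 8 h libraries held 8.86 ± 3.73 CPM on the pericentral and 0.742 ± 0.448 CPM on the periportal side (-3.58, SE 0.55, edgeR adjusted p 0.00076). Adipocyte markers, whose cells also express Lpl, summed there to 1.68 to 7.73 and 2.02 to 3.45 CPM, mostly Cidec, and their part in this was not tested. In pericentral hepatocytes it rose from 2.01 ± 0.326 CPM in fed mice to that 8 h level (2.14, SE 0.50, edgeR adjusted p 0.00845). Apoc2, the activator of Lpl, was higher in periportal fed libraries, 147 ± 12.6 against 60.4 ± 13.1 CPM (1.29, SE 0.17, edgeR adjusted p 0.000108). Gpihbp1, which anchors Lpl to endothelium and is itself an endothelial marker, was higher in periportal hepatocytes over the mean of the states (2.70, SE 0.70, edgeR adjusted p 0.0108) at group means of 0.0394 to 0.639 CPM; the part of endothelial RNA in this was not tested.

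Of the 16 regulators tested, 1 was higher and 2 lower in periportal hepatocytes in fed mice (3.89% and 4.13% of all genes), 0 and 2 after 8 h (3.72% and 3.42%), and 1 and 1 after 24 h (1.70% and 2.47%). Pparg, a nuclear receptor for fatty acids with Cd36 among its known targets, averaged 26.8 ± 6.20 CPM on the pericentral side of fed mice and 1.74 ± 1.5 CPM on the periportal side, and 19.8 ± 3.95 against 1.11 ± 0.763 CPM after 24 h (log2 fold change -4.18, SE 0.56, edgeR adjusted p 0.000671). The adipocyte markers, whose cells also express Pparg, summed to 2.26 to 4.76 CPM in the pericentral and 1.90 to 2.28 CPM in the periportal fed libraries, and to 4.6 to 10.1 and 5.14 to 9.89 CPM after 24 h, mostly Cidec, and their part in this was not tested. Nr1i3, the receptor CAR, was lower in periportal fed hepatocytes (-1.79, SE 0.26, edgeR adjusted p 0.000392), Ppargc1a, a coactivator of oxidative genes, was higher (1.09, SE 0.24, edgeR adjusted p 0.00945), and Creb3l3 was higher over the mean of the states (0.29, SE 0.07, adjusted p 0.00624). With fasting, 4 regulators rose and 2 fell in pericentral hepatocytes after 8 h (7.27% and 6.57% of all genes) and 7 rose and 3 fell after 24 h (10.8% and 11.1%). In periportal ones 3 rose and 1 fell after 8 h (7.56% and 6.85%), and 9 rose and 2 fell after 24 h (9.59% and 10%). Srebf1, the regulator of lipid synthesis genes, fell from 889 ± 239 to 61.6 ± 21.2 CPM in periportal hepatocytes after 24 h (-3.85, SE 0.38, edgeR adjusted p 1.26e-05). From fed to 24 h Ppargc1a rose from 5.39 ± 1.64 to 17.3 ± 4.32 CPM in pericentral hepatocytes (1.68, SE 0.24, edgeR adjusted p 0.00016). In the same time Foxo1 rose in periportal ones (1.37, SE 0.17, adjusted p 5.68e-05), and so did Nr1i3 (1.31, SE 0.26, adjusted p 0.00218). Ppara, the fasting receptor of the liver, which was chosen after its values were seen, went from 99.4 ± 11.8 CPM in pericentral fed to 194 ± 17.9 CPM in 24 h libraries.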

How the data were processed

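Per the submitters' processing notes, kallisto 0.46.0 and the genome build mm10 were used; the annotation, the strand setting and the step from transcripts to genes are not given in the sources used here. The authors deposited estimated counts, not normalized, in 1 table of genes by 18 libraries. Of the values above 0, 41.9% to 46.1% were whole numbers within 1e-09, and they were rounded before testing. Of the 28030 genes, 27566 were paired with a symbol. After filterByExpr 12477 genes remained, with no less than 99.95% of any library's counts. Per the labels, RNA was column-purified with TRIzol and libraries were made with a NEBNext Ultra kit.

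All 18 libraries entered 1 fit of edgeR 4.0.16 (robust quasi-likelihood, TMM scaling, 6 group coefficients, R 4.3.3), from which 12 comparisons were taken. The Benjamini-Hochberg adjustment covered all genes tested, and calls were made under 0.05. SE is the size of the log2 fold change over the square root of F, and intervals are 95%. CPM use the TMM factors. CPM per kb use the median length of the protein-coding transcripts in GENCODE M21 that carry a consensus coding region (CCDS) tag. Where no transcript has that tag, all protein-coding ones are used. Depth was 1.84e+07 to 2.64e+07 counts, and 3 libraries a group limit the precision. The code was tested on simulated data. Replicates differed beyond sampling noise, with a chi-square of their counts per gene of 35.9 to 122, so none was taken for another deposited again. This does not show that they came from separate mice. At 24 h the pericentral and periportal libraries of the same number deviated together from their group means (correlations of 0.11, 0.21 and 0.16), and a fit paired by number was added for that comparison after seeing the data.

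Alternatives were DESeq2 size factors, the Wald test of DESeq2 1.42.0, scaling without the 20 most abundant genes, no low-count filter, only the compared groups, a replicate block, and leaving out each library. The members and gene lists were chosen with earlier results of these data known. Always named were the 10 members. Also named were, for each called member, its 2 most similar genes, and from each list up to 4 called genes with the largest fold change for zones and for fasting. Slc27a6, Acsbg1, Acss1, Fabp3, Fabp4 and Fabp7 did not pass the filter. Of the genes this rule names, 2 are not reported here.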

Additional observations from a re-analysis of the deposited data

How the results depend on the processing

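Of 503 alternative values for the 21 called results of single genes, 0 changed sign and 27 lost the call, and 13 of the 21 results kept it under every alternative run, among them the zone calls of Cd36 and Vldlr and the falls of Acsl3. Of the uncalled results, 51 values gained a call and 82 changed sign, none with a log2 fold change above 0.56 in size. Scaling without the 20 most abundant genes moved the median of all genes by up to -0.11.

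The number of the 10 genes called between zones in fed mice was 2 in place of 1 with only the compared groups (1150 in place of 1000 of all genes). After 8 h it was 1 in place of 0 by DESeq2 (1258 in place of 891 of all genes) and after 24 h 2 in place of 1 (822 in place of 520). DESeq2 also gave 4 in place of 2 for the mean of the states (2806 in place of 2532). In pericentral hepatocytes from 8 h to 24 h it was 1 in place of 2 under scaling without the 20 most abundant genes and with only the compared groups. These settings called 941 and 617 of all genes there, in place of 1212. In periportal hepatocytes from fed to 24 h both settings gave 5 in place of 3, while for all genes they gave 2295 and 2193 in place of 2446. From 8 h to 24 h in periportal hepatocytes DESeq2 size factors and only the compared groups gave 2 in place of 1, and the DESeq2 test 5. For all genes these 3 settings gave 955, 413 and 1378 in place of 931. The cause was not tested. For the mean of the states, a fit of only the compared groups is the same fit and was not run.

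Leaving out 1 library gave 1 to 2 called between zones in fed mice, 0 to 1 after 8 h, 1 to 2 after 24 h and 2 to 4 for the mean of the states (4 without pericentral 8 h replicate 1). The run with 4 called 2440 of all genes, in place of 2532. The pericentral counts ranged from 1 to 2 for 8 h (1 without 8 h replicate 1), 4 to 5 for 24 h and 0 to 2 for 24 h against 8 h (0 without 24 h replicate 3). Those named runs called 1385 in place of 1727 and 547 in place of 1212 of all genes. The periportal counts ranged from 1 to 4 for 8 h (1 without 8 h replicate 3), 2 to 4 for 24 h and 1 to 3 for 24 h against 8 h (3 without fed replicate 2 or 8 h replicate 1 of the pericentral zone, or fed replicate 3 or 8 h replicate 1 of the periportal zone). For all genes the first named run called 1366 in place of 1798, and the last 4 called 817, 981, 903 and 783 in place of 931. For both differences between the zones' changes they stayed at 0.

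Between the zones, same-numbered libraries correlated in their deviations from the group means at -0.02 to 0 in fed mice, 0.01 to 0.1 after 8 h and 0.11 to 0.21 after 24 h. Over all 45 same-numbered pairs the range was -0.20 to 0.24 (median 0.04), against a median of -0.02 for different numbers. A replicate block in a fit of only the 24 h libraries, chosen after seeing the data, called 1 of the 10 between zones, Cd36 (-3.64, edgeR adjusted p 0.000141), as without it. With the replicate number as a block in all groups, the periportal count from 8 h to 24 h was 3 in place of 1, as Fabp2 (0.78, edgeR adjusted p 0.0421) and Lipc (-0.50, adjusted p 0.0311) were added, and the other counts stayed within 1.5 times. For all genes that periportal count was 965 in place of 931. At this depth Vldlr had the lowest counts of the 10, 6 to 128 a library. The largest SE of the 10 were those of Cd36, 0.36 between zones over the mean of the states, against 0.30 for Vldlr.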
